A study of Mus musculus with 8 samples.

Results

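Protein kinase C (PKC) is a family of serine and threonine kinases, and the 8 isoform genes described here are Prkca, Prkcb, Prkcd, Prkce, Prkch, Prkcq, Prkci and Prkcz. They were chosen by symbol from a table of gene counts, and all 8 had a row among its 14765 genes and passed the low-count filter. RNA was measured by poly(A) sequencing of whole PrL tissue from brains of mice labelled C57; PrL is read here as prelimbic cortex, a medial prefrontal area. There were 4 Sham and 4 SNI libraries. SNI is the usual short name of spared nerve injury, in which branches of the sciatic nerve are cut to give lasting neuropathic pain, and sham surgery is its control. The labels used here give no age, time after surgery, or pooling of animals, and do not tie a library to one animal. The p-values therefore rest on the variation among these 8 libraries, part of which may be technical.

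PKC isoforms fall into classes by what switches them on. Conventional isoforms (such as alpha and beta) need calcium and the membrane lipid diacylglycerol, calcium-independent isoforms (delta, epsilon, eta, theta) need diacylglycerol alone, and atypical isoforms (zeta, iota) need neither. In neurons, diacylglycerol is made when receptors coupled to Gq proteins activate phospholipase C, and PKC then phosphorylates receptors, channels and membrane-bound proteins at synapses, a route long studied in synaptic plasticity and in the sensitisation of pain pathways.

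Library totals ran from 14735602 to 19602487 counts. The tissue carried markers of cortical neurons: Slc17a7, the vesicular glutamate transporter of cortical excitatory neurons, averaged 1843 CPM in sham, and Gad1, an enzyme of GABA synthesis, 326 CPM. CPM is a gene's count as a share of its library, and all CPM values are scaled by TMM, the edgeR method that corrects for differences in library composition. In bulk tissue, fewer cells of a type and less RNA per cell cannot be told apart.

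Of the 8 isoforms, 1 fell and 2 rose in SNI. Prkca, a conventional isoform, fell by 26.3%, while the calcium-independent isoforms Prkcd and Prkch rose 1.67-fold and 2.05-fold. The other 5 did not pass the test (edgeR quasi-likelihood test, Benjamini-Hochberg adjustment over all 13911 tested genes, threshold 0.05). Over all tested genes 5.02% were called in either direction, 2.15% higher and 2.87% lower. The median log2 fold change of the 8 isoforms was -0.12, with 3 above 0 and 5 below, against 0.01 over all tested genes. The isoform that fell was one of the 5 listed transcripts above 60 CPM in every library, and both that rose stayed under 17 CPM. The count of 3 calls became 0 without Sham replicate 3 and 1 without SNI replicate 2, although 4 isoforms had an unadjusted p under 0.05 in both fits.

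**Figure D1:**
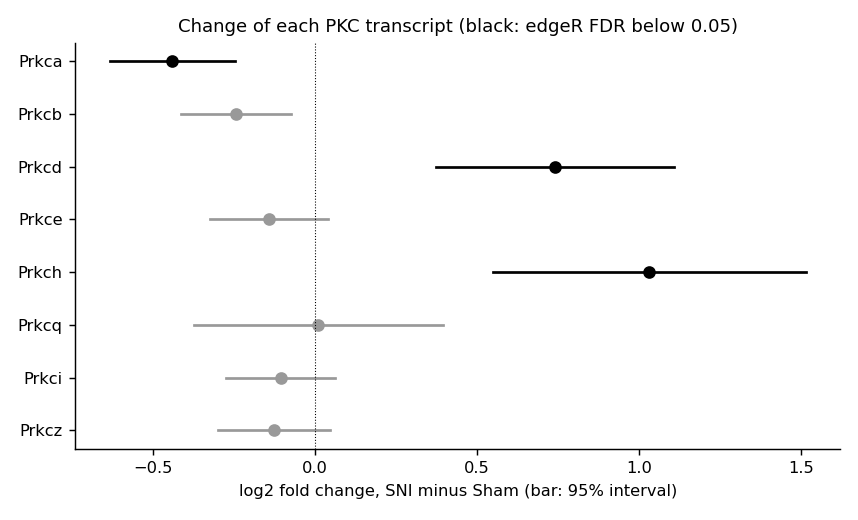
Log2 fold change (x axis, SNI minus Sham) of each PKC transcript from the edgeR fit, with its 95% interval, not adjusted for multiple testing. Prkca (-0.44), Prkcd (0.74) and Prkch (1.03) are drawn in black as the isoforms that passed the threshold.

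Levels between genes can be compared only per length, so CPM was divided by the length of each gene's exons in GENCODE M21. This length joins the exons of all annotated transcripts of a gene, so it can exceed that of the transcripts present. Which transcripts were present was not measured, and the order of genes below holds for these lengths only. On this scale Prkce was the highest of the 8 isoforms in every library, at 69.8 ± 3.35 CPM per kb in sham (SD, n = 4 libraries). Prkcb was at 55.7 ± 3.96 and Prkcz at 46.2 ± 3.32 CPM per kb in sham. Prkcb and Prkcz did not overlap in sham but did in SNI (44.1 to 50.2 against 39.1 to 46.2 CPM per kb). Prkca, at 21.3 ± 2.17 CPM per kb in sham, was the fourth and Prkci, at 13.7 ± 0.191, the fifth in every library. Prkcd (1.42 ± 0.185), Prkcq (1.21 ± 0.251) and Prkch (0.620 ± 0.163 CPM per kb) were far scarcer in sham. The ranges of Prkcd and Prkcq overlapped in sham, from 1.18 to 1.56 and from 1.05 to 1.59 CPM per kb, so their order is not resolved there. Prkch lay below Prkcq in all 4 sham libraries, and above it in 2 of the 4 SNI libraries.

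**Figure D2:**
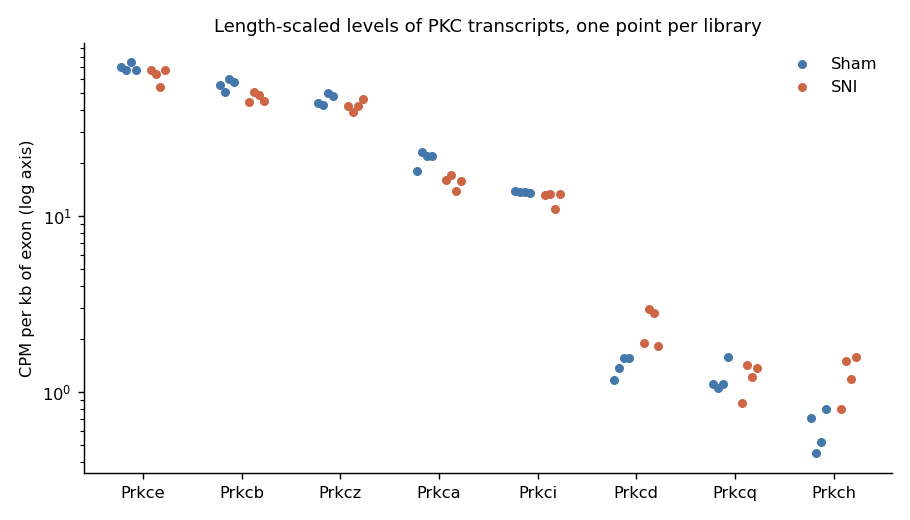
Levels of the 8 PKC transcripts in CPM per kb of exon (log axis), ordered by their sham mean, with 1 point per library. Prkcd, Prkcq and Prkch lie below 3 CPM per kb in every library, and the other 5 transcripts lie above 10 CPM per kb.

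The conventional transcripts Prkca and Prkcb together held 35.9% to 37.5% of the summed CPM per kb of the 8 isoforms in sham libraries and 31.6% to 35.7% in SNI libraries. The 4 calcium-independent transcripts held 33.6% to 35.7% in sham and 33.9% to 38.2% in SNI, nearly all of it Prkce. The share of Prkcd was 0.675% ± 0.0694 in sham and 1.28% ± 0.348 in SNI, and that of Prkch 0.296% ± 0.0786 and 0.682% ± 0.178 (SD, n = 4 libraries each). These shares were not tested, and they rest on the same exon lengths.

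Among the conventional isoforms, Prkca encodes PKC alpha, a calcium-dependent kinase that binds the synaptic scaffold Pick1. Its level in sham replicates 1 to 4 was 163, 207, 198 and 196 CPM, and in SNI replicates 1 to 4 it was 144, 153, 125 and 142 CPM. Every SNI library lay below every sham library, and the nearest pair was Sham replicate 1 and SNI replicate 2. The means were 191 ± 19.5 and 141 ± 11.7 CPM (SD, n = 4 libraries each), and the log2 fold change was -0.44 ± 0.0909 (SE) with an edgeR adjusted p of 0.0133. It passed in 17 of 18 alternatives, with log2 fold changes from -0.51 to -0.39. The alternatives that left out a pair of libraries all removed SNI replicate 2, where Prkca was highest in SNI. Without Sham replicate 3 the value was -0.42 and the edgeR adjusted p 0.0544. Prkca (ENSMUSG00000050965.14) spans positions 107933387 to 108343928 on chromosome 11 of GRCm38, minus strand. It shares 30 exon bases with Apoh on the opposite strand. The sources used here do not say whether the authors counted by strand.

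Prkcb encodes PKC beta, abundant in forebrain neurons. Its sham replicates 1 to 4 had 422, 386, 456 and 441 CPM and its SNI replicates 1 to 4 had 338, 384, 372 and 346 CPM. All SNI values lay below all sham values, but SNI replicate 2 and Sham replicate 2 were close to each other. The log2 fold change was -0.24 (95% interval -0.41 to -0.07, not adjusted) and did not pass (edgeR adjusted p = 0.0932). DESeq2 and limma voom with quality weights did call it, with adjusted p of 0.0283 and 0.0382.

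**Figure D3:**
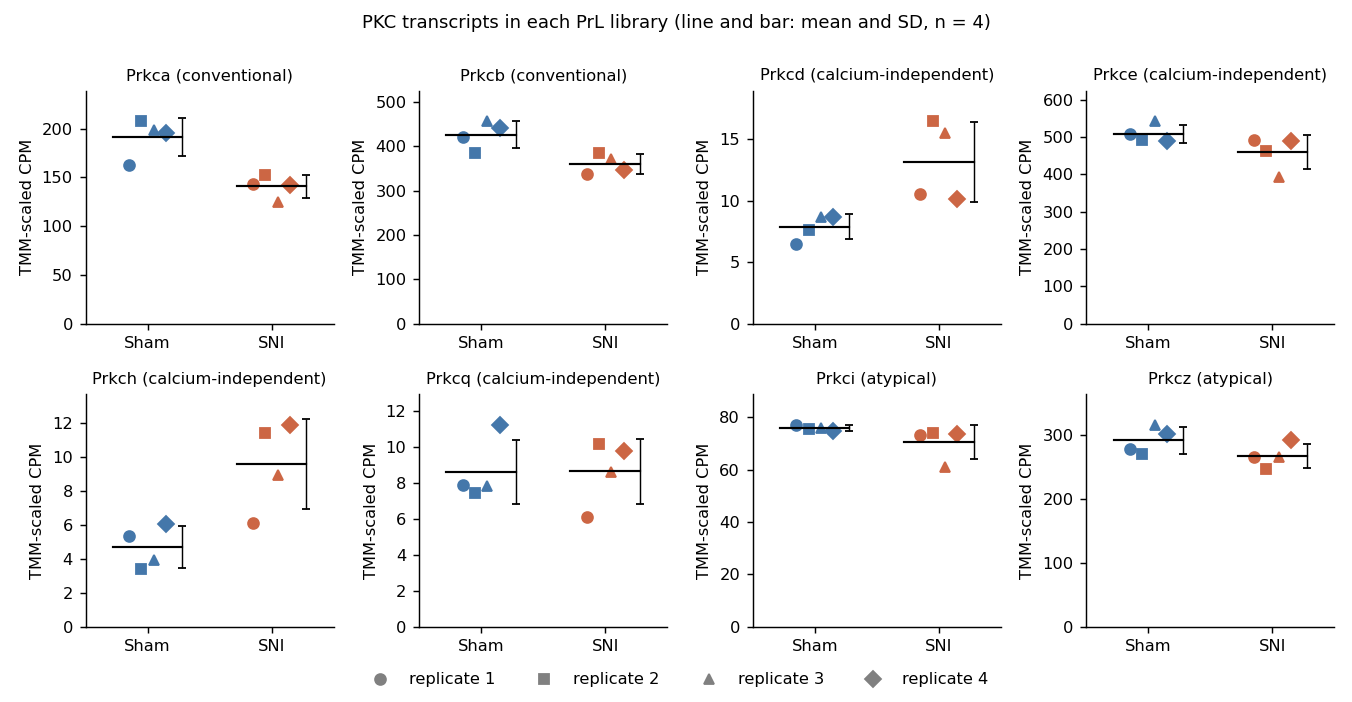
TMM-scaled CPM of each PKC transcript in every library, with 1 panel per gene, the y axes starting at 0, and marker shapes giving the replicate number. Lines and bars are the mean and SD of 4 libraries; the groups are apart for Prkca, Prkcb, Prkcd, Prkch and, by a narrow margin, Prkci.

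Among the calcium-independent isoforms, Prkcd encodes PKC delta, known in the brain as a marker of neurons in thalamus and central amygdala, and expressed in myeloid cells too. Its sham replicates 1 to 4 had 6.51, 7.64, 8.66 and 8.66 CPM and its SNI replicates 1 to 4 had 10.5, 16.5, 15.5 and 10.1 CPM. All SNI libraries lay above all sham libraries, with SNI replicates 2 and 3 highest. The means were 7.87 ± 1.02 and 13.2 ± 3.29 CPM (SD, n = 4 libraries each), and the log2 fold change was 0.74 ± 0.173 (SE) with an edgeR adjusted p of 0.0243. The raw counts behind these values were 96 to 332. The call was less steady than that of Prkca: with 1 library left out at a time it held in 3 fits, against 7 for Prkca. It held in 10 of all 18 alternatives. Leaving out SNI replicates 2 and 3, where Prkcd was highest, had to lower the change, and gave 0.39 with an edgeR adjusted p of 0.298. The call was lost without Sham replicates 1, 2 or 3 or without SNI replicates 2 or 3 (highest edgeR adjusted p = 0.0917) and under limma voom (log2 fold change 0.55, adjusted p = 0.0676). Prkcd (ENSMUSG00000021948.17) spans 30595354 to 30626210 on chromosome 14 of GRCm38, minus strand, and overlaps no other annotated gene.

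Prkch encodes PKC eta, a diacylglycerol-activated isoform best known from epithelia. Its sham replicates 1 to 4 had 5.36, 3.39, 3.92 and 6.02 CPM, and its SNI replicates 1 to 4 had 6.07, 11.4, 8.92 and 11.9 CPM. SNI replicate 1 was barely above Sham replicate 4, while the other 3 SNI libraries lay well above all sham libraries. The means were 4.67 ± 1.23 and 9.56 ± 2.66 CPM (SD, n = 4 libraries each), and the log2 fold change was 1.03 ± 0.227 (SE) with an edgeR adjusted p of 0.0184. Raw counts ran from 51 to 230. It passed in 14 of 18 alternatives. The edgeR adjusted p rose to 0.0673 without Sham replicate 3 and 0.0559 without SNI replicate 2. Leaving out SNI replicates 2 and 4, where Prkch was highest, had to lower the change, and gave a log2 fold change of 0.68 (edgeR adjusted p = 0.185). Prkch (ENSMUSG00000021108.18) spans 73584796 to 73778185 on chromosome 12 of GRCm38, plus strand, and overlaps no other annotated gene.

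Prkce, the epsilon isoform that sensitises peripheral pain neurons, had 507, 492, 542 and 488 CPM in sham replicates 1 to 4 and 492, 463, 393 and 490 CPM in SNI replicates 1 to 4. The groups overlapped, and SNI replicate 3 was the lowest library. The log2 fold change was -0.14 (95% interval -0.32 to 0.04, edgeR adjusted p = 0.362). Prkcq, the theta isoform of T cell receptor signalling, had 7.87, 7.44, 7.84 and 11.2 CPM in sham and 6.13, 10.2, 8.59 and 9.76 CPM in SNI, replicates 1 to 4. The groups overlapped over most of their range, and the log2 fold change was 0.01 (95% interval -0.37 to 0.39, edgeR adjusted p = 0.983).

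Both atypical isoforms failed the test. Prkci, which acts with the Par3 and Par6 proteins in cell polarity, had 77.1, 75.5, 76.1 and 74.6 CPM in sham replicates 1 to 4 and 73.3, 74.1, 60.9 and 73.6 CPM in SNI replicates 1 to 4. Its sham spread was the smallest of the 8 isoforms (coefficient of variation 1.40%), and SNI replicate 3 stood apart below all others. The log2 fold change was -0.10 (edgeR adjusted p = 0.479) and -0.04 without SNI replicate 3. Prkcz, whose gene also makes the brain form PKM zeta from an internal start, had 278, 271, 316 and 302 CPM in sham and 265, 247, 266 and 292 CPM in SNI, replicates 1 to 4. The groups overlapped, with a log2 fold change of -0.13 (95% interval -0.30 to 0.05, edgeR adjusted p = 0.402). RefSeq lists 3 separate start windows for Prkcz, and gene counts add up whatever starts from them.

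In 5 of the 8 isoforms the SNI values lay all above (Prkcd, Prkch) or all below (Prkca, Prkcb, Prkci) the sham values, against 12.7% of all tested genes (5.64% all above and 7.02% all below). Prkcb and Prkci had this separation without passing the test.

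Promoter sequences are shown for Prkca and Prkcd, the called isoforms with an entry in the RefSeq promoter table (GRCm38.p6), because they moved in opposite directions. Of the 8 isoforms 6 matched an entry, all but Prkce and Prkch. Each run is read 5′ to 3′ on the gene's own strand from 250 bases before the annotated start, leaving out bases inside a GENCODE exon. For Prkcd the first of 2 start windows is printed. Capitals mark the GC box GGGCGG or its reverse complement and the TATA box TATAAA, searched on both strands.
Prkca, chr11:108343929-108344138, minus strand: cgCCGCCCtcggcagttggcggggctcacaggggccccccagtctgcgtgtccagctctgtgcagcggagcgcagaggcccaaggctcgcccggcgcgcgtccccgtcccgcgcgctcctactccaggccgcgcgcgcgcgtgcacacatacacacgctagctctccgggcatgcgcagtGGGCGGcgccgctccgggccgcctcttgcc
Prkcd, chr14:30626211-30626458, minus strand: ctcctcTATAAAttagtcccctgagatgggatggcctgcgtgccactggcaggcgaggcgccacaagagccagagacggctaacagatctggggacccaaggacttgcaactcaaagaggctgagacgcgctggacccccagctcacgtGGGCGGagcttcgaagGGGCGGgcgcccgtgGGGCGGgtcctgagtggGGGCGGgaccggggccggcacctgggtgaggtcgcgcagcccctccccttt
The 250 bases before the printed start held 2 GC boxes in Prkca and 4 in Prkcd, and the marked motifs did not overlap each other. At least 1 GC box was present in 32.7% of 32851 windows of this length, at least 2 in 16.7% and at least 4 in 4.09%. The single TATAAA of Prkcd began 244 bases before the start (12.4% of windows held one), and neither gene had TGACG, the core of the cAMP response element, which 17.8% of windows held. GC content was 76.8% for Prkca and 67.6% for Prkcd, against a median of 52.4%. The second start window of Prkcd, at chr14:30610261-30610560, held 0 of these motifs and had a GC content of 50.8%. These matches describe the letters only.

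Markers of cell types and layers moved along with the 3 called isoforms in some libraries. For the counts below, 2.15% of all tested genes were called higher and 2.87% lower. Beside Prkca, 3 of 5 upper-layer cortical markers fell (Lamp5, Mdga1 and Cux2) and 0 rose, and their summed level was 436 to 586 CPM in sham and 361 to 379 CPM in SNI. The lowest sham library for both Prkca and these markers was replicate 1. Within SNI the 2 did not go together. Prkca was lowest in replicate 3 (125 CPM), where the markers summed to 377 CPM. It was highest in replicate 2 (153 CPM), where they summed to 364 CPM. Deep-layer markers went the other way from the upper-layer markers: 2 of 5 rose (Hs3st4 and Ntsr1) and 0 fell, with sums of 168 to 258 CPM in sham and 256 to 301 CPM in SNI. Excitatory neuron markers had 1 of 7 lower (Nrn1), with sums of 4896 to 5622 CPM in sham and 3651 to 5117 CPM in SNI. Beside Prkcd, 2 of 5 microglial markers rose (Tmem119 and P2ry12) and 0 fell. Of the 5, 4 had a log2 fold change above 0, and Csf1r had -0.05. Their sums were 251 to 320 CPM in sham and 306 to 443 CPM in SNI. Within SNI the sums were highest in replicate 3 (443 CPM) and then replicate 2 (344 CPM), and Prkcd in replicate 2 and then replicate 3. Sham replicate 4 had 320 CPM of these markers, more than SNI replicates 1 and 4 (306 and 310 CPM). Its Prkcd was lower, at 8.66 CPM against 10.5 and 10.1 CPM. Of 7 thalamic markers 1 rose (Synpo2), and their sums overlapped (102 to 128 CPM in sham, 107 to 126 CPM in SNI). Within SNI the thalamic sums were also highest in replicates 3 and 2 (126 and 124 CPM). So were the sums of astrocyte markers (3803 and 3733 CPM) and of endothelial markers (220 and 199 CPM), so this order of libraries was not particular to microglial markers. Beside Prkch, 0 of 11 striatal markers passed in edgeR (6 at an unadjusted p under 0.05, 1 by DESeq2, 6 by limma voom), with sums of 256 to 513 CPM in sham and 385 to 923 CPM in SNI. SNI replicates 2 and 4 had 923 and 918 CPM of striatal markers, against 385 and 465 CPM in SNI replicates 1 and 3, and were also the SNI libraries with most Prkch. Sham replicate 1 had 513 CPM of these markers, more than SNI replicates 1 and 3. Its Prkch was lower, at 5.36 CPM against 6.07 and 8.92 CPM. Of 6 T cell markers, Cd4 and Lck were tested and did not pass, with sums of 2.72 to 5.22 CPM in sham and 3.84 to 9.56 CPM in SNI. Cd3d, Cd3e, Cd3g and Cd8a had no row among the 14765 genes, so they could not be tested. No marker in these lists that was tested was at 0 in any library, but none could be, as the smallest count of any gene was 1. The part of these markers in the PKC results was not tested.

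**Figure D4:**
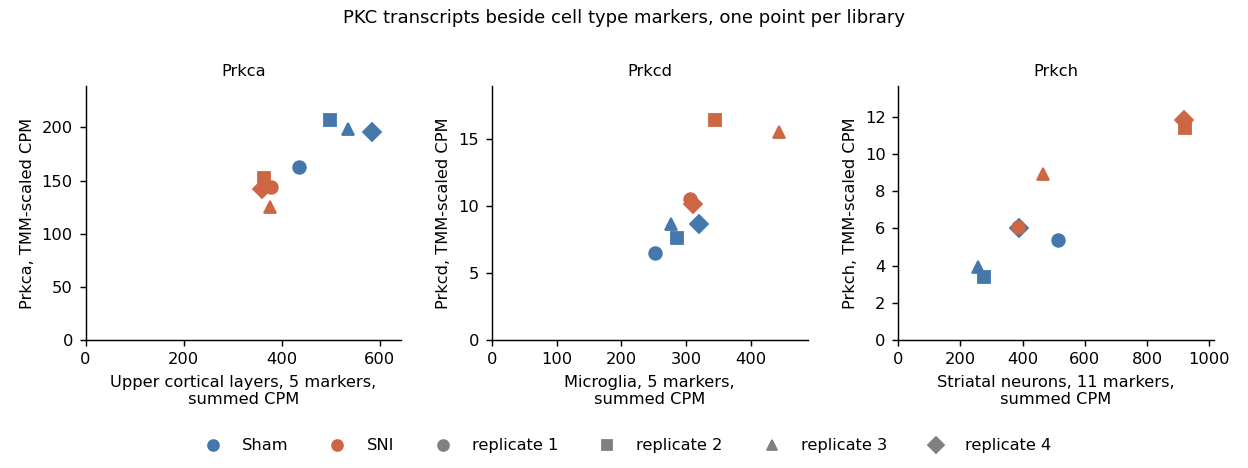
Level of Prkca, Prkcd and Prkch (y axes, TMM-scaled CPM) against the summed CPM of upper-layer, microglial and striatal markers (x axes), with 1 point per library and all axes starting at 0. SNI replicates 2 and 4 lie near 920 CPM of striatal markers and carry most Prkch, and SNI replicates 2 and 3 carry most Prkcd.

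The genes most like each called isoform over the 8 libraries, by Pearson correlation of log2 CPM among genes with a mean of at least 3, were these. For Prkca they were Syne1 (r = 0.990), a nuclear envelope protein, Csnk1g3 (0.977), a casein kinase, and Hdac9 (0.974), a histone deacetylase. For Prkcd they were Polr1c (0.997), a subunit of RNA polymerases, P2ry12 (0.992), the microglial ADP receptor, and Gsta4 (0.988), a glutathione transferase. For Prkch they were Sox11 (0.974), a developmental transcription factor, Il33 (0.972), a cytokine of the interleukin-1 family, and Arrdc3 (0.969), an arrestin-like protein. They are the closest of 10440 genes (10441 for Prkch) compared on 8 libraries that share the group difference, and are given as a description.

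Genes upstream of PKC, which make and clear diacylglycerol, gave 1 call in each direction, a share near that of all tested genes (5.02%). Of 16 tested Gq and phospholipase C genes 1 fell and 0 rose, with a median log2 fold change of -0.12. Plch1, a neuronal phospholipase C, went from 14.1 to 14.8 CPM in sham libraries to 9.88 to 12.1 CPM in SNI libraries (log2 fold change -0.41, edgeR adjusted p = 0.0479), a call that was lost in 12 of 18 alternatives. Plcb1, the main cortical enzyme coupled to Gq, had -0.32 and did not pass (edgeR adjusted p = 0.0925). Of 12 diacylglycerol kinase and lipase genes 1 rose and 0 fell. It was Dgkg, a calcium-regulated kinase that converts diacylglycerol to phosphatidic acid, with 24.8 to 29.8 CPM in sham and 32.3 to 44.5 CPM in SNI (log2 fold change 0.47 ± 0.107 SE, edgeR adjusted p = 0.0217). The call of Dgkg was lost without Sham replicate 2 (edgeR adjusted p = 0.0582) and without SNI replicate 4 (0.0503). The most abundant gene of this list, Dgkz, had -0.29 and did not pass (edgeR adjusted p = 0.0632).

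Genes that mature, anchor or dephosphorylate PKC gave 1 call, where 5.02% of all tested genes were called in either direction. Of 10 genes for maturation and dephosphorylation 0 passed in edgeR, DESeq2 or limma voom, and 0 had an unadjusted p under 0.05 in edgeR. Phlpp1, a phosphatase acting on PKC, had a log2 fold change of 0.12, and Rictor, a subunit of the mTOR complex that primes PKC, had 0.09. Of 15 anchors and partners 1 fell and 0 rose. That was Wwc1, which encodes KIBRA, a synaptic partner of the atypical isoforms, with 138 to 168 CPM in sham and 118 to 127 CPM in SNI (log2 fold change -0.35 ± 0.0793 SE, edgeR adjusted p = 0.0216). The call ended without Sham replicate 2 or 3 (0.0633 and 0.0961). Cavin2, a caveolar protein that binds PKC, had 0.59 and did not pass (edgeR adjusted p = 0.0698).

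Substrates of PKC included the largest change among the pathway genes tested. Of 11 tested, 2 fell and 0 rose, where 2.87% of all tested genes were called lower and 2.15% higher. The 2 that fell passed in all 18 alternatives. Marcksl1, a MARCKS-family protein that PKC releases from the membrane, had 143, 158, 139 and 138 CPM in sham replicates 1 to 4 and 85.0, 64.6, 80.0 and 84.2 CPM in SNI replicates 1 to 4. The groups were far apart, with a log2 fold change of -0.88 ± 0.0926 (SE) and an edgeR adjusted p of 2.75e-04. Nrgn, which encodes neurogranin, a calmodulin-binding postsynaptic substrate, had 2056, 1820, 1940 and 1842 CPM in sham and 1498, 1117, 1153 and 1328 CPM in SNI. It fell by 0.59 on the log2 scale (edgeR adjusted p = 0.00427). Marcks itself had -0.19 and Gap43, the growth-cone relative of neurogranin, had 0.06, and neither passed (edgeR adjusted p = 0.179 and 0.814). These 2 were chosen for naming after their values were seen.

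Genes of other families that hold diacylglycerol-binding proteins gave calls in both directions, and binding by each member was not measured. Of 11 tested 1 fell and 1 rose. Unc13a, the vesicle priming factor Munc13-1, had 396 to 408 CPM in sham and 263 to 314 CPM in SNI (log2 fold change -0.51 ± 0.0771 SE, edgeR adjusted p = 0.00256) and passed in all 18 alternatives. Rasgrp2, an exchange factor for Rap found in striatal neurons and platelets, had 14.5 to 19.9 CPM in sham and 21.1 to 31.1 CPM in SNI (log2 fold change 0.56 ± 0.131 SE, edgeR adjusted p = 0.0249). It was highest in SNI replicates 4 and 2, the libraries with most striatal marker RNA. Leaving these out removed its own highest values, which had to lower the change, and gave 0.34 (edgeR adjusted p = 0.197). The part of striatal RNA in this was not tested. The call held in 13 of 18 alternatives and was also lost without Sham replicate 3 (0.0849), SNI replicate 2 (0.0571) or SNI replicate 4 (0.0622), and without SNI replicates 2 and 3, which left the log2 fold change at 0.59 (edgeR adjusted p = 0.0984). The PKC-related kinases Pkn2 and Pkn3 gave 0 calls in edgeR, DESeq2 and limma voom and 0 at an unadjusted p under 0.05, with log2 fold changes of 0.06 and 0.03. Over the 77 tested genes of these 7 lists, 2 rose and 5 fell, with a median log2 fold change of -0.05. Over all tested genes 2.15% were called higher and 2.87% lower, with a median of 0.01.

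**Figure D5:**
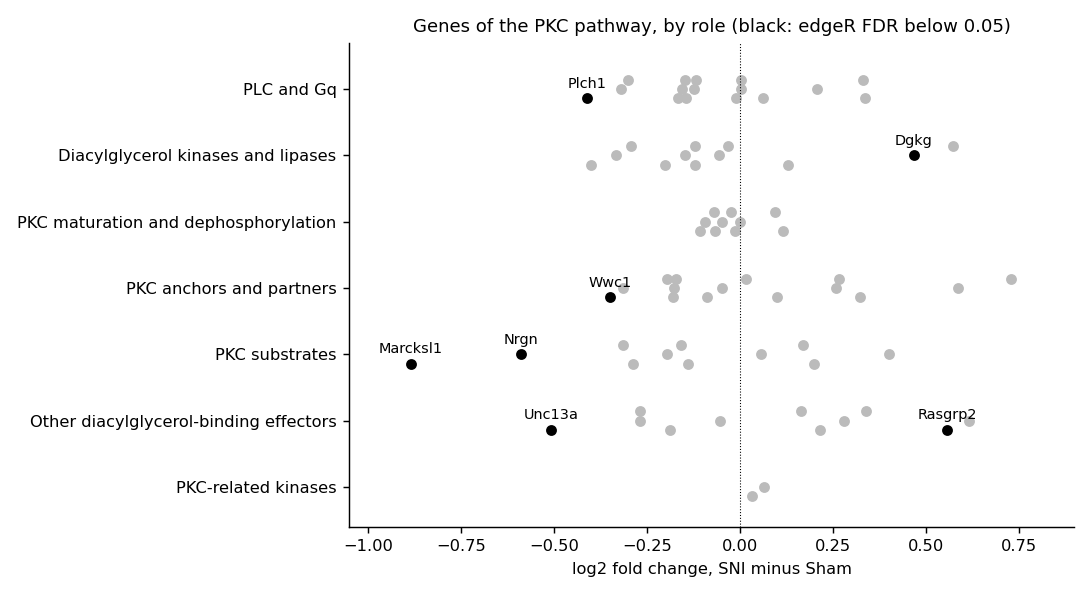
Log2 fold change (x axis, SNI minus Sham) of each tested gene of the PKC pathway, grouped by role, with 1 point per gene (vertical offsets only separate points). The 7 genes that passed the threshold are black and named, with Marcksl1 at -0.88 the lowest and Rasgrp2 at 0.56 the highest of them.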

How the data were processed

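The authors deposited 1 table of whole-number counts of reads per gene symbol in 8 libraries (4 Sham, 4 SNI), with no normalization; the smallest count is 1. Per the submitters' processing notes, fastp, HISAT2 and StringTie were used on GRCm38; versions, annotation, strand setting and the counting step are not given in the sources used here. Libraries were grouped by title.

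Counts were filtered with filterByExpr (13911 of 14765 genes kept), scaled by TMM and fitted with edgeR 4.0.16 in R 4.3.3 (two-sided quasi-likelihood test with robust dispersion, SNI against Sham with no covariate), with Benjamini-Hochberg adjustment and a threshold of 0.05. The standard error is the log2 fold change divided by the square root of F. The log2 CPM used a prior count of 2. The fit was tested on simulated counts. No library was a copy of another (chi-square per degree of freedom of same-group pairs 7.77 to 29.7). Of the symbols, 14661 matched GENCODE M21.

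The members and gene lists were chosen with earlier results of these data known. Named genes are the 8 isoforms, each pathway list's called members or its 2 of smallest p, and the 3 genes most correlated with each called isoform. Some genes that the rule and lists take are not reported here. Alternatives used other scalings, filters and thresholds, DESeq2 1.42.0, limma 3.58.1 voom, a replicate block and libraries left out. The marker lists for GABAergic neurons, astrocytes, oligodendrocytes, their precursors and endothelium gave 0 calls in edgeR. They had 0, 1, 0, 0 and 2 genes at an unadjusted p under 0.05, 0 calls by DESeq2, and 0, 1, 0, 0 and 1 by voom.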

Additional observations from a re-analysis of the deposited data

Results flagged for a closer look

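Groups of 4 libraries were searched for 1 library far from the other 3, by Dixon's gap ratio against its 95% critical value. Of 44 such groups 3 stood out, and chance gives about 1 in 20. For Prkcq, Sham replicate 4 had 11.2 CPM against 7.44 to 7.87 CPM in the other sham libraries (ratio 0.886). For Prkci, SNI replicate 3 had 60.9 CPM against 73.3 to 74.1 CPM in the other SNI libraries (ratio 0.939). For Pkn2, SNI replicate 2 had 37.3 CPM against 26.8 to 28.3 CPM (ratio 0.863).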

How the results depend on the processing

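The 3 isoform calls (2 higher, 1 lower) stood under RLE, upper quartile and library-total scaling and under both other low-count filters, and DESeq2 called 4. Limma voom called 3, with Prkcb in place of Prkcd. Leaving out 1 library at a time gave 0 to 3 isoform calls, and 258 to 858 genes against 698. Leaving out SNI replicates 2 and 3, or 2 and 4, left 1 isoform each (Prkca) and 178 and 438 genes. Replicates 2 and 3 held most Prkcd within SNI, and 2 and 4 most Prkch, so those changes had to shrink. SNI replicate 2, left out each time, held most Prkca within SNI. DESeq2 called 1165 genes. Thresholds of 0.1 and 0.01 gave 1279 and 155 genes, and 4 and 0 isoforms (4 with an unadjusted p under 0.05). Fewer libraries enter the fits that leave some out; the cause of the other shifts was not tested. With library totals as the scaling, 446 genes were higher and 276 lower, against 299 and 399. With the replicate number as a block, 518 genes and 3 isoforms were called. Same-numbered deviations had correlations of -0.148 to -0.006. These values give no sign that the numbers pair the libraries, but they cannot exclude a pairing. The log2 fold changes of Prkca, Prkcb, Prkcd, Prkce, Prkch, Prkci and Prkcz kept their sign in all 18 alternatives, while that of Prkcq was positive in 11 and negative in 7. Prkcd, Prkch and Prkcq had raw counts of 51 to 332 per library, fewer than the other isoforms.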
